A study of Mus musculus with 94 samples.

Results

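Lx7 is one of the Lx subfamilies of LINE-1 (L1) retrotransposons, a group of old rodent L1s. The elements described here were all entries of the deposited L1 table whose name before the copy number begins with Lx7, except Lx7_dup29483, Lx7_dup14700 and Lx7_dup11750, which were left out by the rule and together held 524023 counts. This gave 15505 of the 430083 L1 elements of the table. The number after "dup" tells copies of a subfamily apart. Expression of these copies was analyzed in cortex (CX) and hippocampus (HC) of male wild-type (WT) and trisomic Ts65Dn (TS) littermates. Treated mice (-t) received lamivudine at 3 mg/kg in the drinking water for 4 months, and the others were non-treated (-nt). The listed age of the mice was 3 to 4 months. Tissue was taken after the treatment, so this range does not give the age at dissection. Ts65Dn mice are trisomic for segments of MMU16 and MMU17 and serve as a model of Down syndrome, and all mice came from a cross with hybrid males. In cortex there were 9 WT-nt, 9 TS-nt, 17 WT-t and 13 TS-t libraries, and in hippocampus 8, 8, 17 and 13. The libraries came from 48 mice, and 46 of these gave both tissues. Each label names a single animal and each library was counted as 1 mouse, although the study's methods describe a pooling of samples of a condition before RNA quality control. Cell types could not be checked against marker genes and the trisomy could not be checked from gene doses, because the table analysed here holds L1 elements only.

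L1 elements copy themselves through an RNA that is reverse transcribed into a new genomic site, and lamivudine is a nucleoside analog that inhibits reverse transcriptase. Lx elements belong to an L1 lineage that amplified early in the evolution of murine rodents, and their copies are mostly truncated or interrupted by mutations. RNA counted on such a copy can come from a promoter of its own or from a longer transcript that runs through it, such as an intron of a gene, and the counts do not separate these sources. Sums over a tissue also do not separate fewer expressing cells from less RNA per cell.

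Cortex libraries held between 186545 and 1165192 counts on L1 elements and hippocampus libraries between 178454 and 403378. Levels are given as CPM, the usual scaling of counts to a fixed library size, here the TMM-scaled L1 counts of a library, and as the lengths of copies were not in the table, levels were compared between samples and not per length between copies. Library scaling was done within a tissue for the group comparisons and over both tissues for the tissue comparison, so that the CPM of a library differ between these sections. In a principal component analysis of all tested L1s, 8 cortex libraries stood apart from the rest and no hippocampus library did. They came from WT-t mice 1, 3, 4 and 47, TS-t mice 2 and 8, TS-nt mouse 23 and WT-nt mouse 24. The cortex library of WT-t mouse 1 had counts on only 80 Lx7 elements, against a median of 1836 in cortex, and that of WT-nt mouse 24 had the 1165192 L1 counts. Values below include these libraries unless it is said that they were left out. The first digits of the animal labels were 18, 19 or 20, and every non-treated mouse had a label with 20, so that a difference between treated and non-treated mice cannot be told apart from the label where treated mice with other labels are included.

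Most Lx7 copies were at the edge of detection. Counts were found on 14798 copies in any library, on 13306 in cortex, on 9947 in hippocampus and on 8455 in both tissues, and 707 copies had none. Of the copies with a count, 1286 had a single count and 6401 had fewer than 10 over all 94 libraries, whereas 1561 had at least 100 counts. The median copy held 12 counts, and the median over all L1 elements of the table was 11. In all, Lx7 copies were 3.605% of the elements and held 941088 counts, or 3.258% of all L1 counts. For comparison, Lx5 and Lx6 copies were 5.469% of the elements and held 4.843% of the counts, and Lx8, Lx9 and Lx10 copies were 13.104% and held 12.448%. Nothing was left out of these other subfamilies. The 3 Lx7 elements left out by the rule held 524023 counts, which are in the total of all L1 counts but not in the Lx7 share. The count shares of the subfamilies are therefore not like for like.

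The Lx7 share of L1 counts was close to 3% in nearly every library. It ranged from 1.44% to 3.73% in cortex (3.30% ± 0.345, SD, n = 48) and from 2.75% to 3.53% in hippocampus (3.16% ± 0.147, SD, n = 46). The lowest value was that of cortex WT-t mouse 1, and the next lowest library was at 2.49%. In cortex the share was 3.43% ± 0.10 in WT-nt (n = 9), 3.4% ± 0.138 in TS-nt (n = 9), 3.2% ± 0.480 in WT-t (n = 17) and 3.26% ± 0.319 in TS-t (n = 13). In hippocampus the groups were at 3.25% ± 0.148 (n = 8), 3.19% ± 0.118 (n = 8), 3.10% ± 0.159 (n = 17) and 3.15% ± 0.124 (n = 13) in the same order. Without the libraries that stand apart, the cortex groups were at 3.43% ± 0.107 (n = 8), 3.42% ± 0.142 (n = 8), 3.37% ± 0.0788 (n = 13) and 3.31% ± 0.236 (n = 11), and without WT-t mouse 1 alone the WT-t group was at 3.31% ± 0.167 (n = 16). The ranges of the 4 groups overlapped in both tissues. Within a mouse the cortex share was the higher one in 38 of 46 mice, with a mean difference of 0.136 percentage points (SD 0.288), and without the libraries that stand apart in 34 of 38 mice, with a mean difference of 0.192 (SD 0.157). The 3 elements left out by the rule are not in these shares. They held a further 1.90% ± 0.449 of the L1 counts of a library in cortex and 1.90% ± 0.284 in hippocampus (SD).

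**Figure D1:**
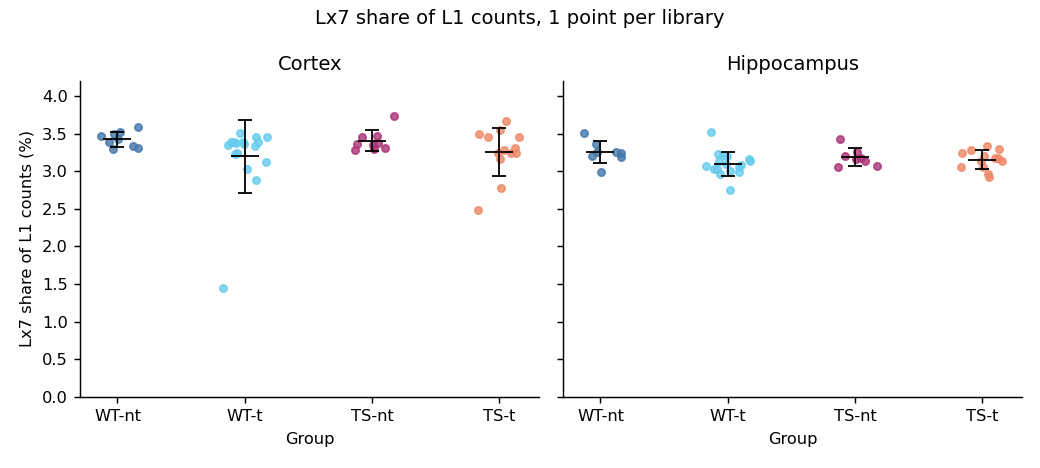
Lx7 share of L1 counts in percent (y axis) by group (x axis) in cortex and hippocampus, with 1 point per library and bars for the mean and SD of the group. All groups lie near 3%, and the single point at 1.44% is cortex WT-t mouse 1.

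More Lx7 copies were detected in cortex than in hippocampus, as was also the case for all L1 elements (medians of 48268 and 35933.5 per library). A cortex library had counts on a median of 1836 copies (lowest 80, highest 5139) and a hippocampus library on 1335.5 (lowest 746, highest 2834). Part of this goes with depth, as cortex libraries held more L1 counts. At an equal depth of 178454 L1 counts the expected medians were 1579 and 1225, and the cortex value was the higher one in 34 of 46 mice. TS-nt mouse 27 had the most Lx7 copies in both tissues, 5139 in cortex and 2834 in hippocampus, and at equal depth these were 2805 and 2086. It also had the most L1 elements of all kinds in both tissues, 132569 and 74670. Its L1 counts were also the highest of the TS-nt group in cortex (763030) and the highest of all libraries in hippocampus (403378).

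Among the copies kept by the rule, single copies held up to a few percent of the Lx7 counts, and the rest was spread over many copies. The 3 elements left out held 524023 counts, against 941088 on all kept copies together. The shares and ranks below therefore describe the kept copies and not the whole subfamily. In cortex the 8 copies with the most counts held 18.7% of the Lx7 counts and the top 20 held 24%, whereas in hippocampus the top 8 held 23% and the top 20 held 29.2%. The top 100 held 36.2% and 43.4%, and it took 393 copies in cortex and 196 in hippocampus to reach 50% of the Lx7 counts. Without the 8 cortex libraries that stand apart, the top 8, 20 and 100 held 20.1%, 25.7% and 38.8% in cortex. It then took 298 copies to reach 50%. There were 12 copies with a count in every cortex library and 57 in every hippocampus library. The first number rests on WT-t mouse 1, since 37 copies were found in all cortex libraries without that library, and 87 without the 8 libraries that stand apart, settings that were chosen after seeing the data. In cortex and hippocampus 4683 and 3070 copies were found in a single library. Both tissues had 7 of their top 8 copies in common, Lx7_dup34285, Lx7_dup4628, Lx7_dup4629, Lx7_dup14701, Lx7_dup36758, Lx7_dup29484 and Lx7_dup7346. The eighth was Lx7_dup11748 in cortex and Lx7_dup1084 in hippocampus. Lx7_dup34285 led in cortex with 29272 counts (5.26% of Lx7 counts) and had 12717 in hippocampus. Lx7_dup4628 led in hippocampus with 22604 counts (5.87%) and had 19307 in cortex.

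The cortex was compared with the hippocampus of the same mouse to ask which copies differ between the tissues. After the filter on low counts, 86 Lx7 copies were tested among 2495 L1 elements, and these 86 copies held 37.6% of the Lx7 counts. In the quasi-likelihood test of edgeR, in which each mouse was a block, 44 of the 86 copies passed an adjusted p of 0.1 (Benjamini-Hochberg over all tested L1s), 24 higher in cortex and 20 higher in hippocampus. The share called was 51.2% for the Lx7 copies and 43.8% for all tested L1s, of which 19% were higher in cortex and 24.8% higher in hippocampus. In this fit more of the called Lx7 copies were higher in cortex, whereas more of all called L1s were higher in hippocampus. The difference between these shares was not tested. The median log2 fold change (cortex over hippocampus) was 0.06 over the tested Lx7 copies and -0.05 over all tested L1s. Copies higher in cortex differed by between 0.34 and 1.80 (median 0.70), and copies higher in hippocampus by between 0.30 and 2.11 in size (median 0.51). A change of more than 1 was seen in 5 and 3 of them. Without the mice with a library that stands apart (38 mice), 48 Lx7 copies passed, of which 43 were among the 44, and 48.7% of all tested L1s passed.

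**Figure D2:**
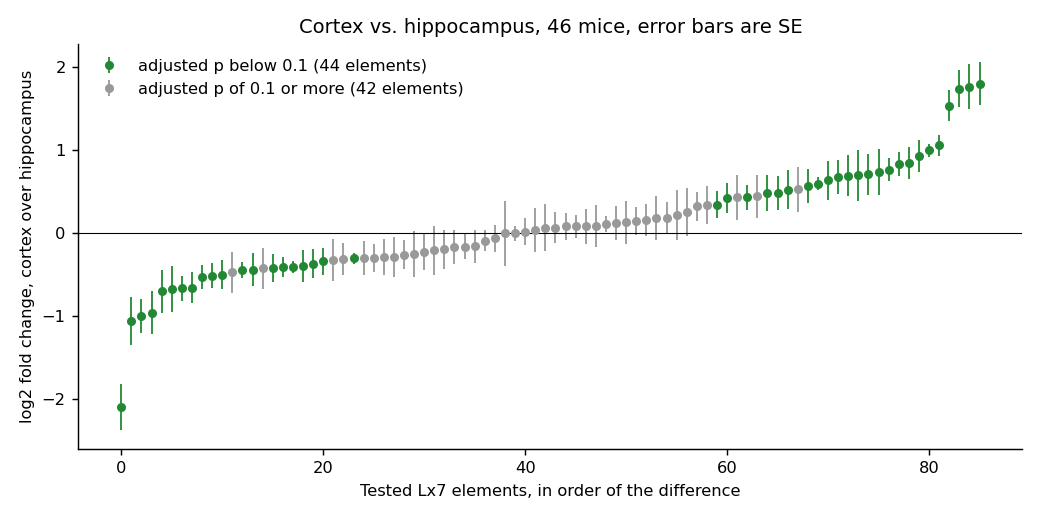
Log2 fold change of cortex over hippocampus (y axis) of the 86 tested Lx7 copies in order of size (x axis), over 46 mice, with bars for the SE and called copies in green. The 44 called copies lie at both ends, from -2.11 to 1.80, and differences of opposite direction are about equally common.

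Lx7_dup34285 was the Lx7 copy with the smallest adjusted p. Its lowest, median and highest levels were 1347, 4005 and 5882 CPM in cortex and 401, 1989 and 3126 CPM in hippocampus. Values of the tissues overlapped between mice, but the cortex was higher in 44 of 46 mice. The log2 fold change was 1.00 (SE 0.08, adjusted p = 1.66e-19). Fitted in each group alone, the log2 fold change of this copy was 0.93 in WT-nt, 0.92 in WT-t, 1.21 in TS-nt and 1.05 in TS-t.

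A further 7 copies were named as higher in cortex. Lx7_dup11748 was at 125, 446 and 765 CPM (lowest, median, highest) in cortex and at 79.0, 216 and 601 in hippocampus (log2 fold change 1.06, SE 0.13, adjusted p = 4.06e-11). Lx7_dup11632 was at 0, 324 and 750 CPM in cortex and at 8.50, 99.8 and 627 in hippocampus (1.54, SE 0.19, adjusted p = 1.46e-10). Both were higher in cortex in 43 of 46 mice, and the library with no count on Lx7_dup11632 was that of WT-t mouse 1. Lx7_dup14701 was at 934, 1873 and 4599 CPM in cortex and at 521, 1281 and 2234 in hippocampus (0.60, SE 0.08, adjusted p = 1.23e-09), and was higher in cortex in 41 mice. Among the copies named as higher in cortex, the widest differences were those of Lx7_dup3604, Lx7_dup34282 and Lx7_dup28950, all with low medians in hippocampus. Lx7_dup3604 had medians of 134 CPM in cortex and 35.5 in hippocampus (1.80, SE 0.26), and Lx7_dup34282, whose copy number is close to that of Lx7_dup34285, of 97.7 and 33.4 (1.77, SE 0.27). Lx7_dup28950 had medians of 263 and 67.5 CPM (1.75, SE 0.23), but its highest value was 845 CPM in cortex and 1132 in hippocampus. Lx7_dup2324 differed less, with medians of 330 and 174 CPM (0.83, SE 0.15). These 4 copies were higher in cortex in 43, 37, 39 and 43 of 46 mice.

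Copies higher in hippocampus included the pair Lx7_dup4628 and Lx7_dup4629. Lx7_dup4628 was at 953, 2527 and 5308 CPM (lowest, median, highest) in cortex and at 625.3, 3468 and 7214 in hippocampus, and Lx7_dup4629 at 469, 1960 and 4563 and at 757, 2625 and 5070. The ranges overlapped widely, and the hippocampus was higher in 42 and in 39 of 46 mice. The log2 fold changes (cortex over hippocampus) were -0.41 (SE 0.07, adjusted p = 2.49e-06) and -0.30 (SE 0.07, adjusted p = 0.000224). The largest difference of a tested Lx7 copy was that of Lx7_dup6390, which was at 0, 28.4 and 285 CPM in cortex and at 29.7, 149 and 564 in hippocampus (-2.11, SE 0.28, adjusted p = 1.22e-09). It was higher in hippocampus in 41 of 46 mice.

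Lx7_dup18596 had medians of 128 CPM in cortex and 215 in hippocampus (-1.0, SE 0.20, adjusted p = 4.30e-05), and Lx7_dup7346 of 600.0 and 811 (-0.45, SE 0.10, adjusted p = 0.000118). Lx7_dup1085, whose copy number follows that of Lx7_dup1084, had medians of 259 and 380 CPM (-0.67, SE 0.16). Lx7_dup38281 had medians of 54.4 and 93.9 CPM (-0.97, SE 0.26), and Lx7_dup2969 of 42.3 and 84.3 (-1.06, SE 0.29). The hippocampus was higher in 41, 38, 37, 35 and 34 mice for these 5 copies. Of the most abundant copies named above, Lx7_dup36758 (medians 1912 and 2373 CPM, -0.53, SE 0.15) and Lx7_dup1084 (380 and 539 CPM, -0.52, SE 0.15) also passed the test, higher in hippocampus in 39 and 36 mice. Lx7_dup29484 did not (778 and 746 CPM, 0.11, SE 0.09, adjusted p = 0.357), and its higher tissue was the cortex in 24 mice and the hippocampus in 22.

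**Figure D3:**
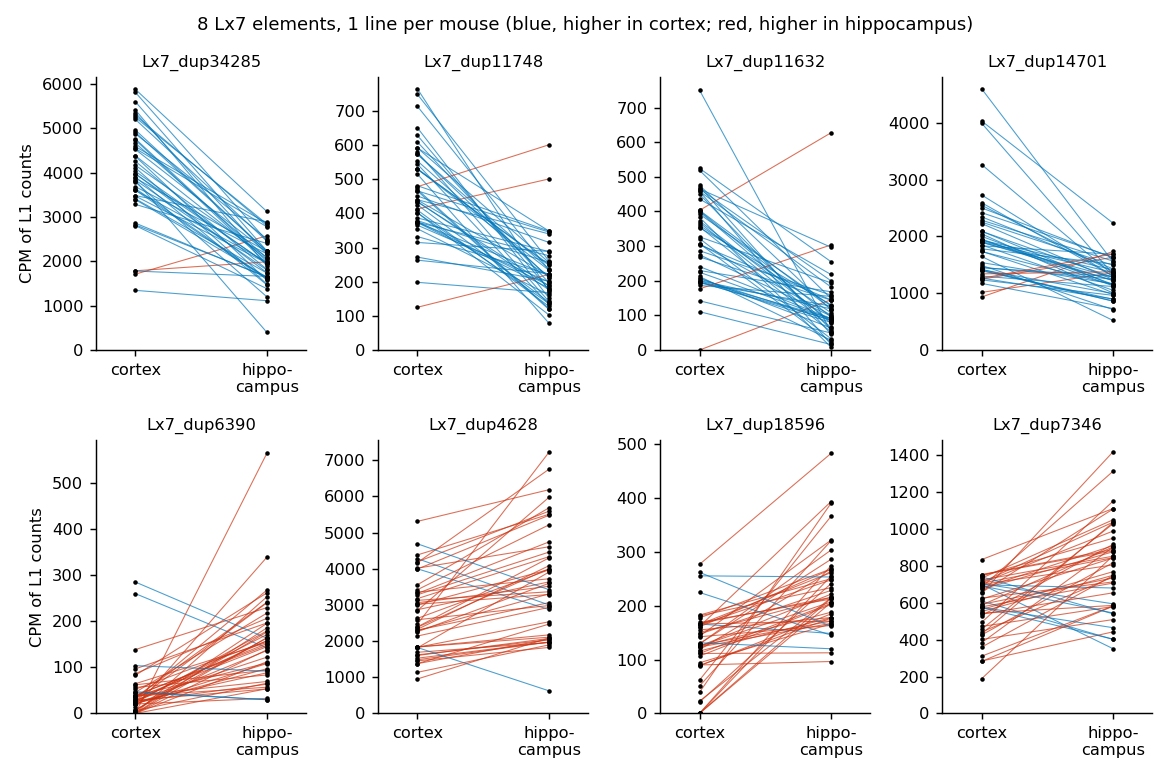
CPM of L1 counts (y axis) in cortex and hippocampus (x axis) of the 4 named copies with the smallest adjusted p in each direction, with 1 line per mouse for 46 mice, blue where cortex was higher and red where hippocampus was higher. Lines run almost all one way for Lx7_dup34285 (44 of 46), and a few mice run the other way in every panel.

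Within the groups, fewer copies were called than over all 46 mice. In the 8 WT-nt mice 3 of 73 tested Lx7 copies passed (4.11%, background 3.97% of tested L1s). In the 17 WT-t mice 17 of 79 passed (21.5%, background 14.2%). The 8 TS-nt mice gave 12 of 72 (16.7%, background 13.3%) and the 13 TS-t mice 18 of 77 (23.4%, background 17.7%). By animal label, 28 of 81 Lx7 copies passed in the 27 mice with labels that begin with 20 (34.6%, background 29.8%). In the 12 mice with 19, 21 of 73 passed (28.8%, background 28.3%), and in the 7 mice with 18, 0 of 74 (0%, background 0.357%). Of the 7 mice with 18, 4 had a cortex library that stands apart. Whether the tissue difference differed between the 4 groups was tested with the terms of tissue by group. No Lx7 copy of 86 passed, and 0% of all 2495 L1s did. At an unadjusted p below 0.05, 1 Lx7 copy and 0.882% of all L1s were found. Without any true difference a share of about 0.05 lies below this p. The share of all L1s was under that, so that the low numbers do not show that the tissue difference was alike in the groups.

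Genotype and treatment were compared within each tissue, with all 4 groups in the model. In cortex 200 Lx7 copies were tested among 5416 L1s and in hippocampus 156 among 4238, and 133 copies were tested in both. These copies held 42.2% and 47.5% of the Lx7 counts. The remaining counts lay on copies that did not reach the minimum count of the filter in enough libraries, 13106 in cortex and 9791 in hippocampus. No Lx7 copy passed an adjusted p of 0.1 in any of the 6 comparisons in either tissue with edgeR, nor with DESeq2. Without the 8 libraries that stand apart, 0 of 200 passed in each cortex comparison with edgeR, where up to 0.0185% of all L1s did. Between 2% and 4.5% of the Lx7 copies were then at an unadjusted p below 0.05, and between 2.18% and 4.16% of all L1s. Over all L1s, 0% passed with edgeR in every cortex comparison, and in hippocampus 0.0708% passed for genotype in non-treated mice and 0.0472% for TS-t vs. WT-nt, with 0% in the other 4. With DESeq2 between 0% and 0.425% of all L1s passed in a hippocampus comparison and 0% in cortex.

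The number of Lx7 copies at an unadjusted p below 0.05 was also low. In cortex these were 4 of 200 for genotype in non-treated mice (background 1.51% of all L1s), 3 for genotype in treated mice (1.96%), 2 for treatment in TS mice (0.905%), 3 for treatment in WT mice (1.59%), 2 for TS-t vs. WT-nt (1.75%) and 4 for the interaction of genotype and treatment (1.11%). In hippocampus they were 5 of 156 (4.03%), 6 (3.94%), 1 (3.26%), 5 (3.16%), 6 (4.25%) and 2 (3.11%) in the same order. With DESeq2 the cortex comparisons had 2.5% to 5.5% of Lx7 copies and 2.31% to 4.86% of all L1s below this p. Without any true difference a share of about 0.05 is found below a p of 0.05. The cortex shares with edgeR lay under it for all L1s, so that low numbers there do not show that differences are absent. The median log2 fold change of the tested Lx7 copies lay between -0.06 and 0.09 in the 6 cortex comparisons and between -0.05 and 0.08 in the 6 hippocampus comparisons. With the size factors of DESeq2 the cortex medians lay between -0.15 for WT-t vs. WT-nt (all L1s -0.09) and 0.20 for the interaction (all L1s 0.15). Single copies varied more widely, and for TS-nt vs. WT-nt the quartiles were -0.24 and 0.31 in cortex but -0.34 and 0.19 in hippocampus.

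The Lx7 copy with the widest difference between TS-nt and WT-nt was Lx7_dup11598, which was low in every group. In hippocampus it was at 0, 3.34 and 42.3 CPM (lowest, median, highest) in WT-nt, with a count in 4 of 8 libraries, and at 6.83, 70.9 and 179 CPM in TS-nt, with a count in 8 of 8. In cortex it was at 0, 6.02 and 67.1 CPM in WT-nt and at 0, 87.0 and 192 in TS-nt. The groups overlapped in both tissues. The log2 fold change was 3.06 in hippocampus (SE 0.93, adjusted p = 0.672 with edgeR) and 2.20 in cortex (SE 0.85, adjusted p = 0.999). When every L1 with at least 10 counts in the tissue was tested, adjusted p with edgeR was 0.0711 and 0.0550 for this copy, but in that setting 14.5% of all L1s passed in hippocampus and 20.8% in cortex. Medians of the treated groups lay between these, at 25.8 CPM in WT-t and 36.6 in TS-t in hippocampus and of 47 and 24.8 in cortex. TS-t vs. TS-nt was at -1.29 (SE 0.73) in hippocampus and -1.05 (SE 0.72) in cortex, with adjusted p-values of 1.00 and 1.00.

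The other copies with the smallest p in TS-nt vs. WT-nt were Lx7_dup7435 in cortex and Lx7_dup16185 in hippocampus. Lx7_dup7435 was at 208 ± 67.8 CPM in TS-nt and 98.0 ± 50.3 in WT-nt (SD, n = 9 each, log2 fold change 1.08, SE 0.41, adjusted p = 0.999 with edgeR), and in hippocampus the change was 0.26 (SE 0.37). Lx7_dup16185 was at 166 ± 94.6 CPM in TS-nt and 375 ± 222 in WT-nt (SD, n = 8 each, -1.18, SE 0.40, adjusted p = 0.884 with edgeR), and in cortex the change was -0.73 (SE 0.52). The groups overlapped for both copies.

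In TS-t vs. TS-nt the copies were Lx7_dup34282 and Lx7_dup17240 in cortex and Lx7_dup2969 and Lx7_dup27617 in hippocampus. The first pair had higher means in TS-t, 153 ± 122 against 70.8 ± 39.7 CPM (1.09, SE 0.46) and 130 ± 105 against 58.7 ± 62.7 CPM (1.10, SE 0.53). The second pair had lower means in TS-t, 46.8 ± 44.2 against 86.0 ± 52.3 CPM (-0.89, SE 0.44) and 43 ± 41.3 against 85.9 ± 38.5 CPM (-0.98, SE 0.52). All 4 adjusted p-values were 1.00, and the groups overlapped each time.

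In WT-t vs. WT-nt Lx7_dup4628 had the smallest p of the Lx7 copies in both tissues. In cortex its lowest, median and highest levels were 1598, 2760 and 3779 CPM in WT-nt and 725, 1509 and 4321 in WT-t (-0.55, SE 0.22, adjusted p = 0.999). In hippocampus they were 2847, 3681 and 6674 CPM in WT-nt and 1785, 2091 and 6047 in WT-t (-0.58, SE 0.25, adjusted p = 1.00). Many WT-t libraries lay below the lowest WT-nt library, but the highest WT-t libraries reached into the WT-nt range or above it. The cortex and hippocampus values come from the same mice and are not independent of each other. With the 3 WT-t mice whose labels begin with 20, the log2 fold change was -0.87 (SE 0.30) in cortex and -0.84 (SE 0.43) in hippocampus. Lx7_dup4629 was second in hippocampus, with 2925 ± 875 CPM in WT-nt and 1984 ± 982 in WT-t (-0.56, SE 0.25, adjusted p = 1.00), and Lx7_dup25218 in cortex, with 62.0 ± 53.7 and 22.5 ± 28 CPM (-1.43, SE 0.67, adjusted p = 0.999).

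**Figure D4:**
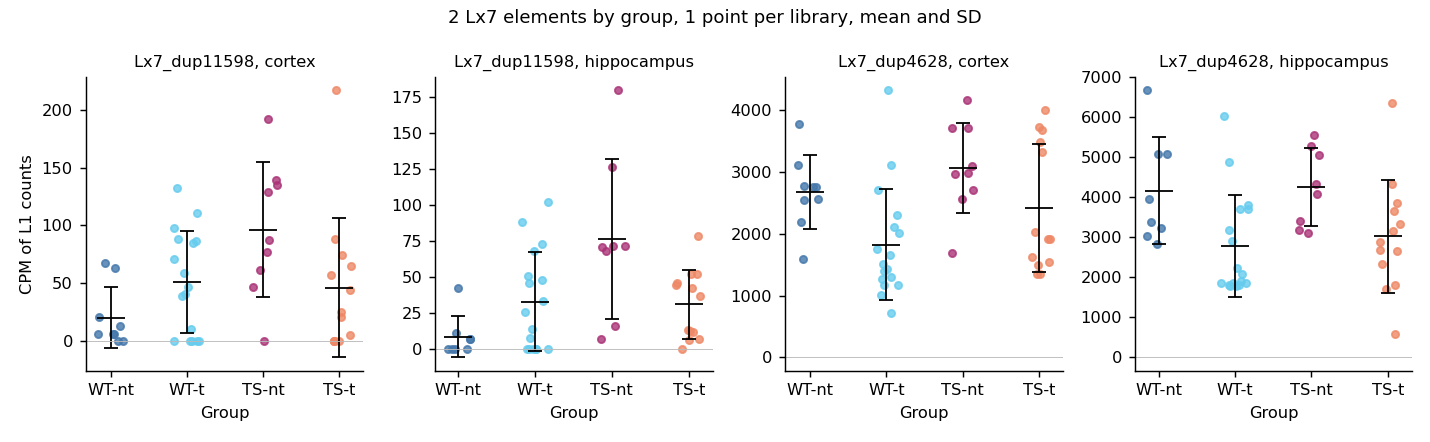
CPM of L1 counts (y axis) of Lx7_dup11598 and Lx7_dup4628 by group (x axis) in cortex and hippocampus, with 1 point per library and bars for the mean and SD of the group. Groups overlap in every panel, and the WT-nt libraries of Lx7_dup11598 in hippocampus are near 0 except WT-nt mouse 24 at 42.3 CPM.

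Lx7_dup38884, the only member listed in a table that the study made from these libraries, was too low to pass the filter used here. Its values are a description. It had 164 counts in cortex, in 31 of 48 libraries, and 87 in hippocampus, in 22 of 46. In cortex the medians were 0 CPM in WT-nt and TS-nt, 11.7 in WT-t and 22.6 in TS-t, and the highest values were 13.6, 76.7, 54.8 and 68.8 CPM in WT-nt, TS-nt, WT-t and TS-t. All 13 TS-t libraries of cortex had a count, against 3 of 9 in WT-nt, 11 of 17 in WT-t and 4 of 9 in TS-nt. In hippocampus 8 of 13 TS-t libraries, 3 of 8 WT-nt, 8 of 17 WT-t and 3 of 8 TS-nt libraries had one. These groups differ in a handful of counts per library. The copy was part of the fits with looser filters only, and no test result is given for it here.

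As both tissues came from the same animals, the data also show whether a copy that was high in the cortex of a mouse was high in its hippocampus. Levels were taken as deviations of log2 CPM from the mean of the group, so that differences between groups do not enter, and the Pearson correlation over 46 mice was tested with 100000 permutations of mice within groups. Of 133 Lx7 copies tested, 8 passed an adjusted p of 0.1, all with a positive correlation. Of the 3722 L1s tested, 7.71% passed with a positive correlation. The median correlation was 0.13 over the Lx7 copies and 0.11 over all L1s. The 8 copies included 6 of the 44 that differed between tissues.

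The closest relation was that of Lx7_dup4629 (r = 0.710, Spearman's rho = 0.789, adjusted permutation p = 0.00122), for which 40 of 46 mice deviated to the same side in both tissues. Lx7_dup29484 followed (r = 0.623, rho = 0.650, adjusted permutation p = 0.000716, 39 mice), then Lx7_dup4628 (r = 0.614, rho = 0.645, adjusted permutation p = 0.000716, 36 mice). Lx7_dup14664 had r = 0.608 and rho = 0.699 (adjusted permutation p = 0.00255, 39 mice), Lx7_dup28950 r = 0.514 and rho = 0.567 (adjusted permutation p = 0.0113, 33 mice) and Lx7_dup21095 r = 0.467 and rho = 0.535 (adjusted permutation p = 0.00167, 31 mice). Adjusted permutation p-values of rho for these 6 copies lay between 0.000702 and 0.00620. The unadjusted permutation p of r was 1e-05 for Lx7_dup29484 and Lx7_dup4628, the smallest that these permutations can give. When the 2 mice farthest from the median in cortex were left out, these correlations were 0.776, 0.621, 0.564, 0.629, 0.545 and 0.429 in the order given here. Without the mice with a library that stands apart they were 0.811, 0.649, 0.724, 0.783, 0.563 and 0.433, and the last no longer passed (adjusted permutation p = 0.137). The spread between mice differed among these copies. Lx7_dup14664 ranged from 0 to 992 CPM in cortex and from 14.7 to 900.0 in hippocampus on the scale of the tissue comparison (379 ± 295 and 277 ± 189, SD), and Lx7_dup21095 varied less (346 ± 111 and 359 ± 98.7).

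**Figure D5:**
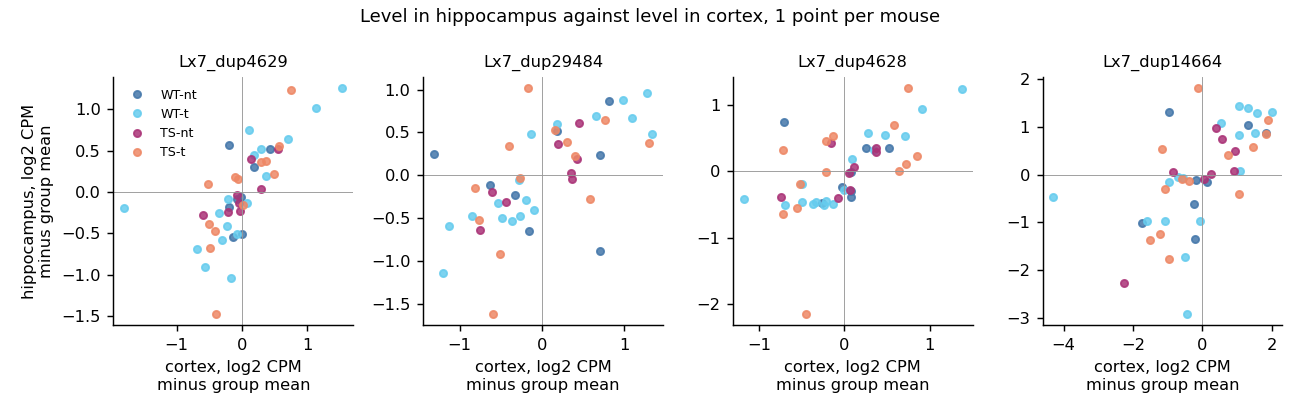
Deviation of log2 CPM from the group mean in hippocampus (y axis) against that in cortex (x axis) for 4 Lx7 copies, with 1 point per mouse coloured by group. Points run from lower left to upper right, with r between 0.608 and 0.710, and single mice such as the cortex library of WT-t mouse 1 lie far to the left.

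Among the 27 mice with labels that begin with 20, the correlations were 0.653 for Lx7_dup4629, 0.38 for Lx7_dup29484, 0.473 for Lx7_dup4628, 0.712 for Lx7_dup14664, 0.480 for Lx7_dup28950 and 0.453 for Lx7_dup21095. Of these, Lx7_dup4629 and Lx7_dup14664 passed (adjusted permutation p = 0.0196 and 0.0144). Levels of Lx7_dup29484 differed by label among treated mice. In WT-t its median was 462, 1047 and 318 CPM in cortex for labels that begin with 18, 19 and 20 (6, 8 and 3 mice) and 490, 956 and 452 CPM in hippocampus. The part of the animal label in the correlation of this copy was not tested.

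Some copies with consecutive numbers varied together. The pair Lx7_dup4628 and Lx7_dup4629 had a correlation of deviations of 0.863 over 48 cortex libraries and of 0.905 over 46 hippocampus libraries, which was the highest of the tested Lx7 pairs with numbers at most 5 apart. Over the 18 tested pairs of consecutive copies in cortex the median correlation was 0.388, and over the 19667 pairs with numbers more than 100 apart it was 0.168. In hippocampus the medians were 0.203 over 13 pairs and 0.005 over 11959. A correlation over 0.5 was found in 4 of the 18 consecutive pairs in cortex (22.2%) and 1 of 13 in hippocampus (7.69%), and the lowest were -0.096 and -0.12. Of the pairs more than 100 apart, 3.07% in cortex and 0.259% in hippocampus were over 0.5. The highest correlations of such distant pairs were 0.845 and 0.690. These pairs share libraries and single copies, and no test was made. Of the members with a number close to those of the 3 elements left out by the rule, Lx7_dup29484 had a correlation of 0.652 with Lx7_dup29483 in cortex and 0.589 in hippocampus, and Lx7_dup11748 of 0.654 and 0.541 with Lx7_dup11750. For Lx7_dup14701 none was computed, as Lx7_dup14700 did not pass the filter in either tissue. Reads that align to several copies were assigned to the most probable one by the authors' counting, and its part in these correlations was not tested.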

How the data were processed

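The authors trimmed the reads of ribosome-depleted, stranded total RNA libraries in Trimmomatic 0.38 and mapped them with HISAT2 2.1.0 on the GRCm38/mm10 genome, where a read could keep several alignments. Single L1 copies were then counted with Telescope (version not given in the sources used here), which assigns a read to its most probable copy. The deposited values are raw counts per copy, not normalized, with 94 libraries in 1 table, and all its columns were used. No pair of libraries held identical counts. Total reads of the libraries were not used here. The table gives neither positions nor lengths nor sequences of copies.

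The members, lists and tests were chosen with earlier results of these data known. Fits were made on all L1 elements with edgeR 4.0.16 (R 4.3.3, limma 3.58.1): filterByExpr (the equivalent of 10 counts in a number of libraries set by the smallest group, and 15 counts in all), TMM factors, robust dispersions and the quasi-likelihood test, with Benjamini-Hochberg adjustment over all tested L1s and a threshold of 0.1. Group comparisons had all 4 groups of a tissue in the model. The tissue comparison had the mouse as a block, since both tissues came from the same animal. Copies are not replicates. The group tests rest on the spread between libraries within groups, and the tissue test on the spread of the tissue difference between mice. The correlation test rests on permutations of mice within groups. Correlations were computed on log2 CPM with a prior count of 2 and tested with permutations (Python 3.11.15 with numba 0.67.0 and scipy 1.17.1). Libraries were said to stand apart when their first principal component lay over 3 median absolute deviations off the median. Permutation and quasi-likelihood tests were two-sided, and the fits and correlations were tested on simulated data. Shares and numbers of copies are given without a test, and ± is the SD between libraries, which includes counting error. The typical spread between libraries, as the common coefficient of variation, was 0.744 in cortex and 0.622 in hippocampus.

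Copies were named by a rule: the 8 with the most counts in each tissue, the 2 with the smallest p in each tissue for genotype in non-treated mice and for treatment in TS and in WT mice, the 8 called copies with the smallest adjusted p in each direction between tissues, the 6 with the highest called correlation, and Lx7_dup38884. The alternatives were DESeq2 1.42.0, its size factors in edgeR, other filters and thresholds, no replicate block, only the groups compared, and subsets of mice.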

Additional observations from a re-analysis of the deposited data

Results flagged for a closer look

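In each group of 8 or 9 libraries the highest and lowest values were checked for a gap to the next library that is wide for the range of the group (Dixon's 95% critical value). Over 24 such groups, 7 values were found. All 7 belonged to TS-nt mouse 27 or WT-nt mouse 24, whose cortex libraries held 763030 and 1165192 L1 counts. The critical value stands for 1 in 20 only for independent values with a normal distribution. These groups share libraries and some hold low counts, so that the number found cannot be compared with chance.

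In TS-nt mouse 27 the Lx7 share of L1 counts in cortex was 3.73%, and the next TS-nt library was at 3.47%. This mouse had counts on 5139 Lx7 copies in cortex, next 1921, and on 2834 in hippocampus, next 1486. Its cortex was also the highest TS-nt library for Lx7_dup34282 at 166 CPM, next 75.4, and for Lx7_dup17240 at 201 CPM, next 93.2. In WT-nt mouse 24, Lx7_dup25218 was at 192 CPM in cortex, next 81.4, and Lx7_dup11598 was at 42.3 CPM in hippocampus, next 11.3. At an equal depth of 178454 L1 counts the copies of mouse 27 were 2805 in cortex and 2086 in hippocampus, and the hippocampus library of mouse 24 held 240384 L1 counts, the fewest of the WT-nt group. The part of depth in the other values was not tested.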

How the results depend on the processing

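The group comparisons depended on the filter. With every L1 that had at least 10 counts in a tissue, edgeR called 1575 Lx7 copies in cortex for genotype in non-treated mice, 959 for genotype in treated mice, 491 for treatment in TS, 1702 for treatment in WT, 1820 for treated TS against non-treated WT and 655 for the interaction, and 673, 441, 588, 541, 601 and 538 in hippocampus. These were 6.99% to 25.9% of the tested Lx7 copies in cortex, against 6.86% to 25% of all tested L1s, and 9.55% to 14.6% against 10.6% to 14.5% in hippocampus. With no filter beyond 1 count it called 1858, 1745, 394, 2204, 2570 and 508 in cortex and 0, 897, 642, 480, 660 and 443 in hippocampus in the same order, 2.96% to 19.3% against 2.98% to 18.4% of all L1s in cortex and 0% to 9.02% against 0% to 9.27% in hippocampus. Per comparison, at most 1 of these copies in cortex and 2 in hippocampus had passed the filter used in the report. Median counts of the called copies were 10 to 22 in cortex and 9 to 19 in hippocampus, and 1 library held a median of 40% to 100% and 33.3% to 57.1% of them. With an unadjusted p below 0.05 and a log2 fold change of at least 1.5, 1 copy was found in cortex TS-nt vs. WT-nt, 2 in the cortex interaction, 2 in hippocampus TS-nt vs. WT-nt and 1 each in hippocampus for treatment in WT, for treated TS against non-treated WT and for the interaction. In all comparisons this was 0% to 1% of Lx7 copies and 0.111% to 0.923% of all L1s in cortex, and 0% to 1.28% and 0.165% to 1.32% in hippocampus. No Lx7 copy was called with DESeq2, with its size factors, with the compared groups only, without the libraries that stand apart (cortex) or with treated mice limited to labels that begin with 20, where these could be run. DESeq2's size factors moved the median of all L1s in the cortex interaction from 0.02 to 0.15.

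Between tissues, 44 Lx7 copies were called with the mouse as a replicate block (24 higher in cortex, 20 in hippocampus) and 39 without the block (22 and 17, all L1s 40.9%), so that the pairing of tissues changed the number little. A minimum count of 20 gave 26 (15 and 11, all L1s 53.6%) and a minimum of 5 gave 60 (27 and 33, all L1s 28.1%), as fewer or more copies were tested. No filter and no block gave 5131 (3885 and 1246, all L1s 33.6%). Subsets of mice gave 0 (0 and 0) for labels that begin with 18, 21 (13 and 8) for 19, 28 (16 and 12) for 20, 3 (3 and 0) in WT-nt, 17 (11 and 6) in WT-t, 12 (8 and 4) in TS-nt and 18 (14 and 4) in TS-t. DESeq2 with the block gave 51 (all L1s 54.6%), its size factors in edgeR 42 (43%) and an adjusted p below 0.05 gave 34 (35.8%). No copy was called for a difference by group in any alternative run. The log2 difference changed sign for Lx7_dup29484 (-0.015 with labels 18, -0.074 in TS-nt), for Lx7_dup7435 (-0.018 without the block, -0.058 with a minimum of 5, -0.025 with neither filter nor block, -0.39 with labels 18, -0.079 with labels 20, -0.38 in WT-nt, -0.16 in TS-t), for Lx7_dup14664 (-0.45 with labels 18, -0.17 in TS-t) and for Lx7_dup21095 (0.0018 with a minimum of 20, 0.23 with labels 19, 0.089 in TS-t). Of these, Lx7_dup14664 alone was called over all mice, at an adjusted p of 0.0961. Correlations between tissues were called for 8 copies, for 4 with labels that begin with 20 and for 7 to 10 otherwise. Without the mice with a library that stands apart, 8 copies passed with a positive correlation and 1 other with a negative one. The Lx7 share over elements that pass the filter was 2.84% in cortex and 2.68% in hippocampus. The causes of these changes were not tested. Counts limit the group comparisons, as most Lx7 copies did not reach the minimum count in enough libraries to be tested.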
